A study of Mus musculus with 13 samples.

Results

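The comparison described here set every mouse that had drunk a chemical early in life against mice that had drunk water alone. It took all 13 arrays of the study, 9 from exposed and 4 from control mice, and 1 array stood for 1 mouse. The level in exposed livers was the mean of the DCA group mean and the PB group mean, so that each treatment had the same weight whatever its number of mice. All mice were male B6C3F1, the hybrid strain of many carcinogenicity tests, and were 7 days old when treatment began. The DCA group (4 mice) drank dichloroacetic acid at 3.5 g/L, and the PB group (5 mice) drank phenobarbital at 0.06%, each for 10 weeks and then plain deionized water for 90 weeks. The control group (4 mice) was given deionized water alone. Liver RNA was measured on bead arrays with 1 value per gene. The labels call the tissue archived frozen liver and do not say whether a piece came from a tumour. Of the 18138 genes in the deposited table, 8431 (46.5%) were detected on at least 4 arrays and were compared.

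Dichloroacetic acid is a by-product of water disinfection that inhibits the kinases acting on pyruvate dehydrogenase, and it causes liver tumours in mice. Phenobarbital activates the nuclear receptor CAR, which switches on genes of drug metabolism and makes rodent hepatocytes divide, and it is the classic promoter of liver tumours in rodents. Both chemicals had been withdrawn long before the livers were taken, so the comparison asked what still set the livers of exposed mice apart from those of control mice.

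The arrays gave no sign of a difference in signal between exposed and control livers. Mean intensity before normalization was 286 ± 90.9 in exposed livers (SD, n = 9, range 188.6 to 462) and 311 ± 78.4 in control livers (SD, n = 4, range 234 to 388), with p = 0.663 in a two-sided exact permutation test. The number of genes detected was 7667 in exposed livers and 7524 in control livers on average (exact permutation p = 0.576, the smallest p that 715 splits allow being 0.0014). The median correlation of an exposed array with a control array was 0.970, and that of arrays within the exposed or within the control mice was 0.970. The tissue label was checked with hepatocyte genes. Ttr, the thyroid hormone carrier made by hepatocytes, stood at 13.76 to 14.09 on the log2 scale on all 13 arrays. The row of albumin (Alb) lay near background on all arrays, at 4.34 to 4.90, where the lowest levels called detected were 4.44 to 4.50, and Fgb and Tat were detected on no array, so the label rests on the other hepatocyte genes. PB replicate 1 lay apart from the other arrays on the second component of variation (21.0% of the variance), and control replicates 2 and 4 held extreme levels of several blood and clock genes that are given below.

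No gene passed the threshold in exposed against control livers. All levels and differences below are on the log2 scale of normalized intensity, errors of differences are standard errors from the limma fit, and adjusted p is Benjamini-Hochberg over all 8431 genes with a threshold of 0.05. In that test 0 genes passed (0.00%), and the smallest adjusted p was 0.0908. An unadjusted p under 0.05 was reached by 406 genes (4.82%) against 421.55 in a set without any difference, 181 of them higher (2.15%) and 225 lower (2.67%) in exposed livers. In 7 genes (0.0830%) all 9 exposed arrays lay above all 4 control arrays, and in 14 genes (0.166%) all lay below. Of all genes tested, 4148 (49.2%) had a difference above 0, and the median difference was -0.0032. Taken singly against the same control arrays, DCA gave 0 genes at the adjusted threshold (0.00%) and 373 at an unadjusted p under 0.05 (4.42%), and PB gave 6 (0.0712%) and 852 (10.1%). The exposed groups set against each other, DCA minus PB, gave 9 genes (0.107%) and 1223 (14.5%).

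**Figure D1:**
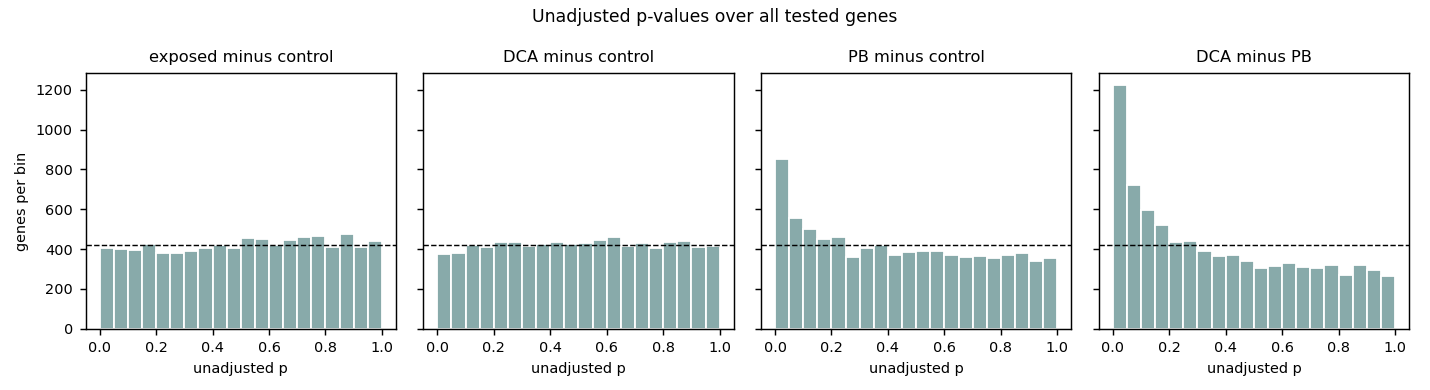
Number of tested genes in each bin of unadjusted p (x axis, 20 bins) for the 4 comparisons, with a dashed line at the count per bin if no gene differed. The exposed and DCA panels lie flat with 406 and 373 genes in the lowest bin, while the lowest bin holds 852 genes for PB minus control and 1223 for DCA minus PB.

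The pooled comparison was the most precise of the comparisons with control. Its median standard error was 0.16, against 0.19 for DCA minus control and 0.18 for PB minus control. The 95% interval of the pooled difference lay within 1 on either side of 0 for 94.3% of genes and within 0.5 for 53.4%.

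The gene with the smallest p was Cyp2d12, a liver cytochrome P450. Its levels were 6.54, 7.12, 6.49 and 6.28 in DCA livers and 8.49, 8.02, 8.36, 8.76 and 8.85 in PB livers, against 4.93, 6.12, 6.55 and 5.05 in control livers. All PB arrays stood above every control array, while the DCA arrays overlapped only with control replicate 3 (6.55) and lay above the other control arrays. The pooled difference was 1.89 ± 0.28 (3.70-fold, 95% interval 1.29 to 2.49, limma adjusted p = 0.0908). The DCA difference from control was 0.94 ± 0.33 and the PB difference 2.83 ± 0.31, and the exposures themselves differed by -1.89 ± 0.31 (DCA minus PB, adjusted p = 0.0467). Cyp2d12 belongs to a family of close relatives, and signal from another member cannot be told apart here. Without control replicate 3 the pooled difference passed (2.18, adjusted p = 0.0135), as it did among genes detected on all 13 arrays (adjusted p = 0.0392), and with the background fitted on all rows it was 1.01.

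A pair of lipid enzymes also lay higher. Lss, the lanosterol synthase of cholesterol synthesis, had 7.42, 7.21, 7.19 and 6.58 in DCA livers and 8.17, 7.65, 7.83, 7.49 and 8.04 in PB livers, against 6.58, 6.74, 6.82 and 6.30 in control livers. All but 1 exposed array, DCA replicate 4, lay above the control range, and the difference was 0.86 ± 0.17 (1.81-fold, adjusted p = 0.553). Elovl6, which lengthens palmitate to stearate, had 8.51, 9.02, 8.17 and 8.38 in DCA livers and 10.27, 8.68, 9.95, 8.63 and 8.80 in PB livers, against 7.93, 7.45, 8.09 and 6.91 in control livers. All 9 exposed arrays lay above all 4 control arrays, with a difference of 1.30 ± 0.32 (2.47-fold, adjusted p = 0.643).

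Hamp2, a hepcidin gene, had 9.30, 8.81, 9.82 and 9.41 in DCA livers and 10.15 to 12.67 (median 10.80) in PB livers, against 8.88, 7.40, 7.90 and 9.23 in control livers. DCA replicate 2 lay inside the control range and the other 8 exposed arrays above it, and the difference was 1.91 ± 0.45 (adjusted p = 0.643). Arrdc3, an arrestin-like protein that acts on adrenergic receptors, had 7.51, 9.56, 8.66 and 8.74 in DCA livers and 9.89, 9.41, 9.27, 9.67 and 9.16 in PB livers, against 7.57, 7.36, 8.15 and 8.08 in control livers, a difference of 1.26 ± 0.29. DCA replicate 1 was the only exposed array inside the control range.

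Gstp2, a pi class glutathione transferase, had the largest difference among the 12 leading genes on the higher side, 2.06 ± 0.52 (4.17-fold, adjusted p = 0.643). Its levels were 8.89, 7.72, 8.12 and 8.51 in DCA livers and 10.72, 7.76, 6.96, 9.31 and 8.51 in PB livers, against 6.63, 7.11, 5.95 and 5.99 in control livers. PB replicate 3 alone overlapped with the control arrays, and the signal may be shared with the near-identical Gstp1. Another 5 genes differed by less. Arsa, the lysosomal arylsulfatase A, differed by 0.59 ± 0.15, Rpia of the pentose phosphate pathway by 0.60 ± 0.16, and Ick, a kinase of the primary cilium, by 0.52 ± 0.14. Gca, which encodes grancalcin, differed by 0.42 ± 0.11 and AA407659 by 0.40 ± 0.11. All 9 exposed arrays stood above all control arrays for Ick, Gca and AA407659. With the background fitted on all rows the differences were 0.05 for Gca, 0.19 for Rpia and 0.26 for Ick, so the size of these small differences depended on the background step.

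**Figure D2:**
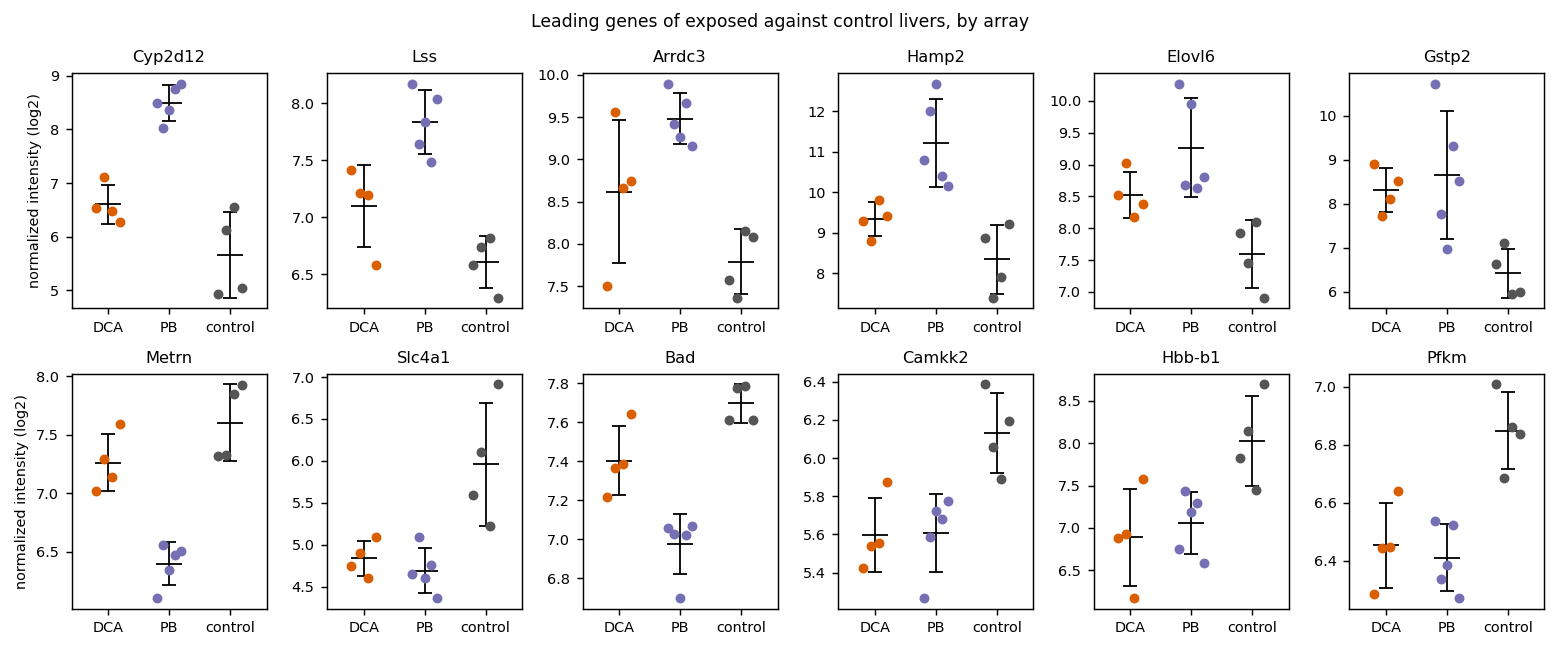
Normalized log2 intensity (y axis) of 12 leading genes on each array, with DCA (orange, n = 4), PB (purple, n = 5) and control (grey, n = 4) side by side; bars are the group mean and 1 SD. Elovl6 lies above every control array in all 9 exposed livers and Slc4a1, Camkk2 and Pfkm below, while for Cyp2d12 and Metrn the PB arrays are much farther from control than the DCA arrays.

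On the lower side the gene with the smallest p was Metrn, which encodes the secreted protein meteorin. It had 7.02, 7.30, 7.14 and 7.59 in DCA livers and 6.11, 6.56, 6.35, 6.47 and 6.51 in PB livers, against 7.32, 7.33, 7.85 and 7.93 in control livers. All PB arrays lay below the control range and 1 DCA array inside it, and the difference was -0.77 ± 0.15 (0.585-fold, adjusted p = 0.553). Bad, a promoter of apoptosis in the BCL2 family, had 7.21, 7.37, 7.38 and 7.64 in DCA livers and 7.06, 7.03, 6.70, 7.02 and 7.07 in PB livers, against 7.61, 7.78, 7.79 and 7.61 in control livers. Only DCA replicate 4 reached the control range, and the difference was -0.51 ± 0.11 (adjusted p = 0.643).

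Camkk2 and Pfkm lay lower by similar amounts in both treatments, -0.54 and -0.53 for Camkk2 and -0.39 and -0.44 for Pfkm (DCA, then PB). Camkk2, a kinase upstream of AMPK, had 5.42, 5.54, 5.55 and 5.87 in DCA livers and 5.27, 5.59, 5.72, 5.68 and 5.78 in PB livers, against 6.39, 6.06, 5.89 and 6.20 in control livers, a difference of -0.53 ± 0.13. Pfkm, the muscle form of phosphofructokinase, had 6.28, 6.44, 6.45 and 6.64 in DCA livers and 6.54, 6.34, 6.38, 6.52 and 6.27 in PB livers, against 7.01, 6.69, 6.86 and 6.84 in control livers, a difference of -0.42 ± 0.10. For both genes all 9 exposed arrays lay below all 4 control arrays, and the adjusted p was 0.643. With the background fitted on all rows their differences were -0.12 and -0.17. The other leading genes on the lower side were Pigt, which takes part in fixing GPI anchors to proteins (-0.56 ± 0.13), Tatdn2 (-0.55 ± 0.14), Rom1, a protein known from the photoreceptor outer segment (-0.46 ± 0.11), Dct, the dopachrome tautomerase of melanin synthesis (-1.46 ± 0.37), and genes of blood cells that are described next. Rom1 was detected on 3 of 4 DCA arrays, 0 of 5 PB arrays and 4 of 4 control arrays, so its level in PB livers lay at background.

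Both treatments lay on the same side of control in all 24 leading genes, and the difference was larger in size for PB than for DCA in 20 of them. The genes were picked by the p of the mean of both differences, which favours genes with both on the same side. These counts therefore describe the picked genes and are no evidence of a shared effect, and the share over all genes is not given here. The treatments share the control arrays, so their differences are given side by side and not as separate evidence. DCA and PB differed from each other at an adjusted p under 0.05 in 2 of the 24, Cyp2d12 and Pigt, where the share among all genes tested was 0.107%. Both comparisons use the same estimate of each gene's spread, so this count too describes the picked genes only. Pigt had 7.98, 8.27, 7.76 and 8.27 in DCA livers and 7.28, 7.23, 7.03, 7.18 and 7.26 in PB livers, against 8.09, 8.59, 8.07 and 8.02 in control livers. Its DCA arrays overlapped with control and its PB arrays did not (DCA -0.12 ± 0.16, PB -0.9995 ± 0.15, DCA minus PB 0.87 ± 0.15, adjusted p = 0.0468). Under 24 alternative settings Pigt passed in 7 (adjusted p 0.00418 to 0.269) and Cyp2d12 in 13 (0.00933 to 0.269). With a single exposed array left out, Cyp2d12 passed only without PB replicate 2 and Pigt only without DCA replicate 3. Neither gene passed with cyclic loess, with median scaling or without a filter on low signal. In Dct the DCA difference was -0.64 and the PB difference -2.28, with DCA minus PB at 1.64 ± 0.41 (adjusted p = 0.141).

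**Figure D3:**
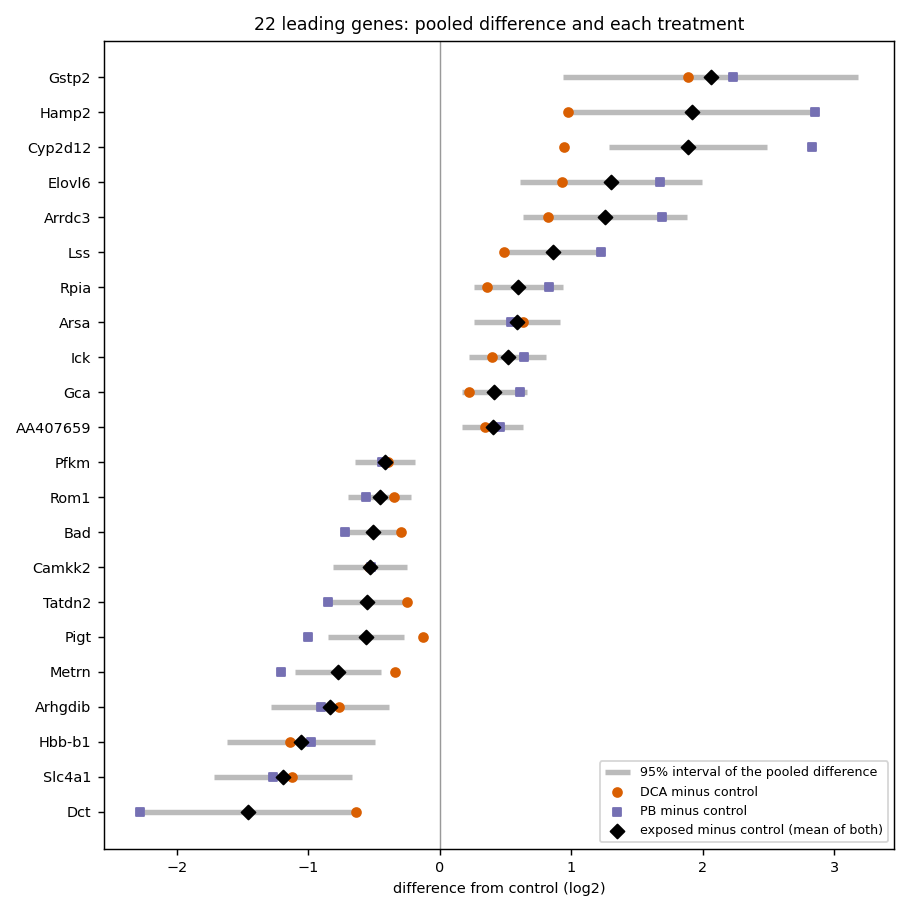
Difference from control (log2, x axis) of 22 leading genes for DCA (orange circles), PB (purple squares) and their mean (black diamonds), with the 95% interval of the mean in grey. Gstp2, Slc4a1, Hbb-b1, Camkk2 and Pfkm have both treatments close together, whereas Cyp2d12, Hamp2, Dct, Metrn and Pigt have PB much farther from 0 than DCA.

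Most genes of red blood cells lay below control in both treatments. Red cells and their precursors carry globin mRNA, the membrane anion exchanger Slc4a1 and the enzymes of heme synthesis, of which Alas2 is the erythroid first step. Slc4a1 had 4.75, 4.90, 4.61 and 5.10 in DCA livers and 4.65, 5.09, 4.60, 4.75 and 4.36 in PB livers, against 5.59, 6.10, 5.22 and 6.91 in control livers. All 9 exposed arrays lay below all 4 control arrays, by -1.19 ± 0.24 (0.437-fold, adjusted p = 0.553), with -1.12 for DCA and -1.27 for PB. The gene was detected on 3 of 4 DCA arrays, 2 of 5 PB arrays and 4 of 4 control arrays, so exposed livers stood close to background, and with the background fitted on all rows the difference was -0.23.

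The beta globin rows showed the same order at higher signal. Hbb-b1 had 6.88, 6.93, 6.17 and 7.57 in DCA livers and 6.75, 7.44, 7.19, 7.30 and 6.59 in PB livers, against 7.82, 8.15, 7.45 and 8.70 in control livers. DCA replicate 4 alone overlapped with control, and the difference was -1.06 ± 0.26 (0.480-fold, adjusted p = 0.643). Hbb-b2 had 6.31, 5.97, 5.78 and 6.68 in DCA livers and 5.92, 6.27, 6.66, 6.58 and 5.25 in PB livers, against 6.87, 7.33, 6.73 and 8.04 in control livers, with no overlap (-1.08 ± 0.28, adjusted p = 0.707). The paralogs are nearly identical and may share signal. Hba-a1, the alpha globin, which was chosen for the text after its values were seen, had 12.35, 11.26, 11.63 and 12.68 in DCA livers and 11.49, 12.88, 12.49, 12.08 and 11.66 in PB livers, against 13.20, 12.79, 12.38 and 13.04 in control livers. It overlapped on 3 exposed arrays (-0.80 ± 0.29, adjusted p = 0.987). In whole liver, fewer red cells and less RNA per red cell cannot be told apart.

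Not every erythroid gene lay lower. Alas2, also chosen after its values were seen, had 11.33, 11.30, 10.71 and 10.64 in DCA livers and 9.10, 10.70, 9.56, 10.55 and 10.42 in PB livers, against 9.37, 11.17, 11.18 and 10.09 in control livers, and the groups overlapped throughout (0.08 ± 0.36). Of the 11 erythroid genes tested, 7 lay lower and 4 higher in exposed livers with a median of -0.33, where all genes tested had a median of -0.0032, and 5 had an unadjusted p under 0.05 on the lower side (background 2.67%). None of the 11 passed the adjusted test. The mean over the list was 6.49 to 6.94 in DCA livers, 6.39 to 6.84 in PB livers and 6.89 to 7.40 in control livers, and the summed linear signal of the 16 listed genes on the array was 5165 to 8776, 3824 to 9672 and 8165 to 10731 in these groups. Epb4.2, Bpgm, Car2 and Hemgn were detected on no array. Without 1 array the median lay between -0.49 (without DCA replicate 4) and -0.20 (without DCA replicate 1), and without control replicates 2 and 4 together it was -0.26.

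To show what precedes an erythroid gene that lay lower in exposed livers and one that did not, the 250 bases before the start of Hba-a1 (chr11:32283422-32283671, + strand) and Alas2 (chrX:150547167-150547416, + strand) are printed from RefSeq, assembly GRCm38.p6, with the motifs AGATAA and TGATAA (letters read by GATA factors) and CACCC (read by KLF factors) on either strand in capitals. Of the 11 genes, 5 had an entry in the promoter table.
Hba-a1: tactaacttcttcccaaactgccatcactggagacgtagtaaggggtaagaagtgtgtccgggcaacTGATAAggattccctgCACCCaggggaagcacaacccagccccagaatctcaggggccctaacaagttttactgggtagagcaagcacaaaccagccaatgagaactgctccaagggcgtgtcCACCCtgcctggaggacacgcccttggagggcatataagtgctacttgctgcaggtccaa
Alas2: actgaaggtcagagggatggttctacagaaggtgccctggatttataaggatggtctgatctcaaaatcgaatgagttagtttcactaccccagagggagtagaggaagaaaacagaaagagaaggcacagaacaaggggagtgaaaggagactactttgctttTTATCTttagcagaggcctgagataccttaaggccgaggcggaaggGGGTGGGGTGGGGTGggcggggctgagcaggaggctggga
Hba-a1 held TGATAA with its first base 183 bases before the start and CACCC at 167 and 60 bases. Alas2 held AGATAA on the other strand (TTATCT) at 86 bases and CACCC on the other strand (GGGTG) at 40, 35 and 30 bases. Among all 32851 windows of this length in the table, AGATAA occurred in 9.99%, TGATAA in 7.94% and CACCC in 52.0%, so these letters are a description of the windows and no evidence of binding.

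Other genes of blood cells had their highest levels on control replicates 2 and 4. Arhgdib, a GTPase regulator of blood cells, differed by -0.83 ± 0.21, with control replicate 2 the highest at 6.36, and by -1.05 to -0.63 without any 1 array. Its row carries a combined detection p over several probes, and with the background fitted on all rows it differed by -0.14. Platelet genes lay lower in exposed livers in 7 of 7 tested members with a median of -0.65, yet Cxcl4, a chemokine of platelets, had 4.72, 4.94, 4.81 and 4.44 in DCA livers and 5.39, 5.04, 5.16, 4.87 and 4.94 in PB livers, against 4.55, 6.78, 4.58 and 7.62 in control livers. Only control replicates 2 and 4 were high, and without replicate 4 the median of the list was -0.09.

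The means of neutrophil and of macrophage genes were highest on control replicate 2. S100a9, a calcium-binding protein of neutrophils chosen after its values were seen, had 5.20, 5.04, 5.86 and 4.70 in DCA livers and 5.38, 5.95, 4.71, 5.42 and 6.18 in PB livers, against 4.58, 7.46, 5.36 and 7.77 in control livers (-0.93 ± 0.50). Only 4 of the 12 neutrophil genes on the array were tested, too few for a list by the rule of 5, and all 4 lay lower with a median of -0.62. Ngp, Mmp8, Il8rb and Csf3r were detected on no array. Of the 11 Kupffer cell and macrophage genes 9 lay lower (median -0.14), against 2 of 11 without control replicate 2 (median 0.24). The median was 0.08 in DCA livers with 7 of 11 higher and -0.17 in PB livers with 0 of 11 higher. The summed signal of the platelet list was 82.5 to 93.5 in DCA livers, 80.4 to 124.8 in PB livers and 76.2 to 975.4 in control livers, and that of the neutrophil genes 288 to 1187, 241 to 1141 and 254 to 1964. Without control replicates 2 and 4, 9 of 11 red cell genes lay lower in exposed livers, and Hbb-b1 differed by -0.66 against -1.06 with all arrays. Without control replicate 4 alone, Slc4a1 differed by -0.87 against -1.19. The part of the platelet, neutrophil and macrophage markers in the red cell values was not tested.

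**Figure D4:**
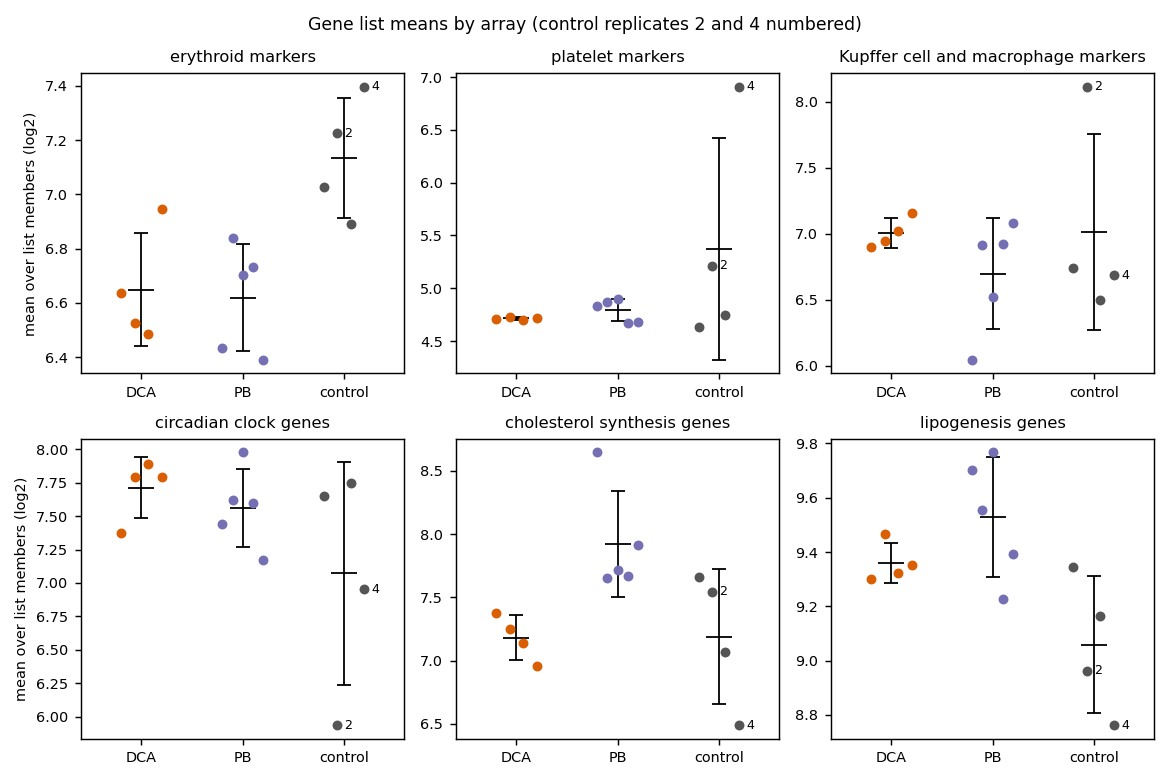
Mean log2 level over the tested members of 6 gene lists (y axis) on each array, with DCA (orange, n = 4), PB (purple, n = 5) and control (grey, n = 4) side by side; bars are the group mean and 1 SD, and control replicates 2 and 4 are numbered. Erythroid means of control livers (6.89 to 7.40) lie above all but 1 exposed liver (DCA at 6.94), whereas in the platelet and clock panels control replicates 2 and 4 stand apart from the other control livers, and in the macrophage panel control replicate 2 does (8.11).

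Genes of the circadian clock had the highest list median, and that median rested mostly on 1 control liver. The labels do not give the hour at which the livers were taken, and clock gene levels change over the day. The clock is a loop in which BMAL1 and CLOCK drive Per and Cry genes through E-boxes, the Per and Cry proteins shut them off, and output factors such as Dbp act on D-boxes of Per genes and of liver enzymes. All 13 clock genes tested lay higher in exposed livers (background 49.2%), with a median of 0.46, and 4 had an unadjusted p under 0.05 (background 2.15%). The genes of BMAL1 (Arntl) and CLOCK were detected on too few arrays to be tested, so the 13 do not cover the whole loop. Dbp had 11.34, 11.55, 12.21 and 11.68 in DCA livers and 11.61, 11.67, 11.69, 11.63 and 11.05 in PB livers, against 11.61, 7.50, 11.69 and 10.09 in control livers. Control replicate 2 was far below all other arrays and control replicate 4 next, while the other 2 control livers were level with exposed livers (1.39 ± 0.57, adjusted p = 0.9995). Per2 had 8.34, 9.16, 8.65 and 8.38 in DCA livers and 7.90, 8.48, 9.70, 8.86 and 8.40 in PB livers, against 7.71, 6.75, 8.67 and 7.09 in control livers (1.10 ± 0.35, adjusted p = 0.816), and 3 exposed arrays lay above the control range.

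Bhlhb2, a repressor within the loop, had 8.64, 9.91, 9.13 and 9.23 in DCA livers and 9.53, 8.83, 9.89, 9.65 and 9.27 in PB livers, against 8.71, 8.45, 9.38 and 8.52 in control livers (0.57 ± 0.24). It lay above the control range on 4 of 9 exposed arrays. Per3, chosen after its values were seen, had 5.75, 5.45, 5.47 and 5.66 in DCA livers and 5.32, 5.16, 5.97, 5.71 and 4.68 in PB livers, against 5.96, 4.32, 5.10 and 4.27 in control livers (0.56 ± 0.29). Control replicates 2 and 4 were the lowest of all 13 arrays. Per1, also chosen so, differed by 0.37 ± 0.41 with 5.88 on control replicate 2 and 8.03 to 8.49 on the other control arrays. Without control replicate 2 the median of the list was 0.17 with 10 of 13 genes higher, and without replicates 2 and 4 it was -0.04 with 6 of 13 higher. Npas2, Cry1 and Bhlhb3 were detected on no array.

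As examples of the sequence through which the loop acts, the 250 bases before the starts of Per1 (chr11:69098699-69098948, + strand) and Per3 (chr4:151044666-151044915, - strand) are printed from RefSeq, assembly GRCm38.p6, with the E-box CACGTG and the D-box TTATGTAA on either strand in capitals. Of the 13 clock genes tested, 9 had an entry.
Per1: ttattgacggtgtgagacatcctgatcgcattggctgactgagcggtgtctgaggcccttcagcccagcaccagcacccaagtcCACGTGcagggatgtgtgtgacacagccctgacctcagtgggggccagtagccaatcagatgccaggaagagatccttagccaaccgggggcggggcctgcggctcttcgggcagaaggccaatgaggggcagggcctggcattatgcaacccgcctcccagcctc
Per3: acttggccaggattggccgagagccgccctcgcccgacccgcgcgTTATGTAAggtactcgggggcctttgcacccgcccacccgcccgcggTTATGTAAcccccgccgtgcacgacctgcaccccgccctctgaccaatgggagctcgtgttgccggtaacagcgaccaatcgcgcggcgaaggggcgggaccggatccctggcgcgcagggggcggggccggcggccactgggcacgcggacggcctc
Per1 held 1 E-box 166 bases before this start, and Per3 held D-boxes at 205 and 158 bases. A second listed start of Per1 held none of these letters in its window. Of all windows, 6.02% held CACGTG and 0.819% held TTATGTAA.

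Genes of lipid synthesis lay mostly higher in exposed livers, and more so in PB livers. In the cholesterol list 17 of 19 tested genes lay higher with a median of 0.33, which was 0.01 in DCA livers (10 of 19 higher) and 0.51 in PB livers (17 of 19 higher). Of these, 3 had an unadjusted p under 0.05 on the higher side (background 2.15%) and 0 passed. Mvd, which makes isopentenyl pyrophosphate, had 6.15, 6.48, 6.23 and 5.75 in DCA livers and 9.03, 8.52, 8.45, 7.10 and 8.41 in PB livers, against 6.45, 7.54, 6.07 and 5.46 in control livers. DCA livers lay within the control range and 4 of 5 PB livers above it (pooled 0.85 ± 0.36, DCA minus PB -2.15 ± 0.40, adjusted p = 0.0623). Without control replicate 4 the median of the list was 0.10 with 13 of 19 higher.

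The lipogenesis list had 13 of 14 genes higher with a median of 0.27 (0.08 for DCA, 0.48 for PB), and 5 had an unadjusted p under 0.05 on the higher side (background 2.15%). Thrsp, a lipogenic factor that answers to thyroid hormone and carbohydrate, had 9.18, 10.47, 9.90 and 10.72 in DCA livers and 9.37, 9.45, 10.75, 8.93 and 8.82 in PB livers, against 8.89, 7.59, 9.30 and 7.38 in control livers. Control replicates 2 and 4 were the lowest arrays, and 6 of 9 exposed arrays lay above the control range (1.48 ± 0.42, 2.78-fold, adjusted p = 0.728). Acly, which makes cytosolic acetyl-CoA, differed by 0.53 ± 0.22 and the desaturase Scd1 by 0.42 ± 0.17, and Dgat1, named because it was the 1 gene lower, stood at -0.34. Without control replicate 4 the list's median was 0.13, and without replicates 2 and 4 it was 0.03 with 8 of 14 higher. In the fatty acid oxidation list, 8 of 14 genes lay lower (median -0.12). Cyp4a14, a PPARA target, had 5.31, 5.06, 4.51 and 5.26 in DCA livers and 7.58, 6.63, 6.18, 6.02 and 6.83 in PB livers, against 10.27, 4.47, 6.28 and 9.68 in control livers, so that the control livers spanned the whole range (-1.83 ± 0.82).

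**Figure D5:**
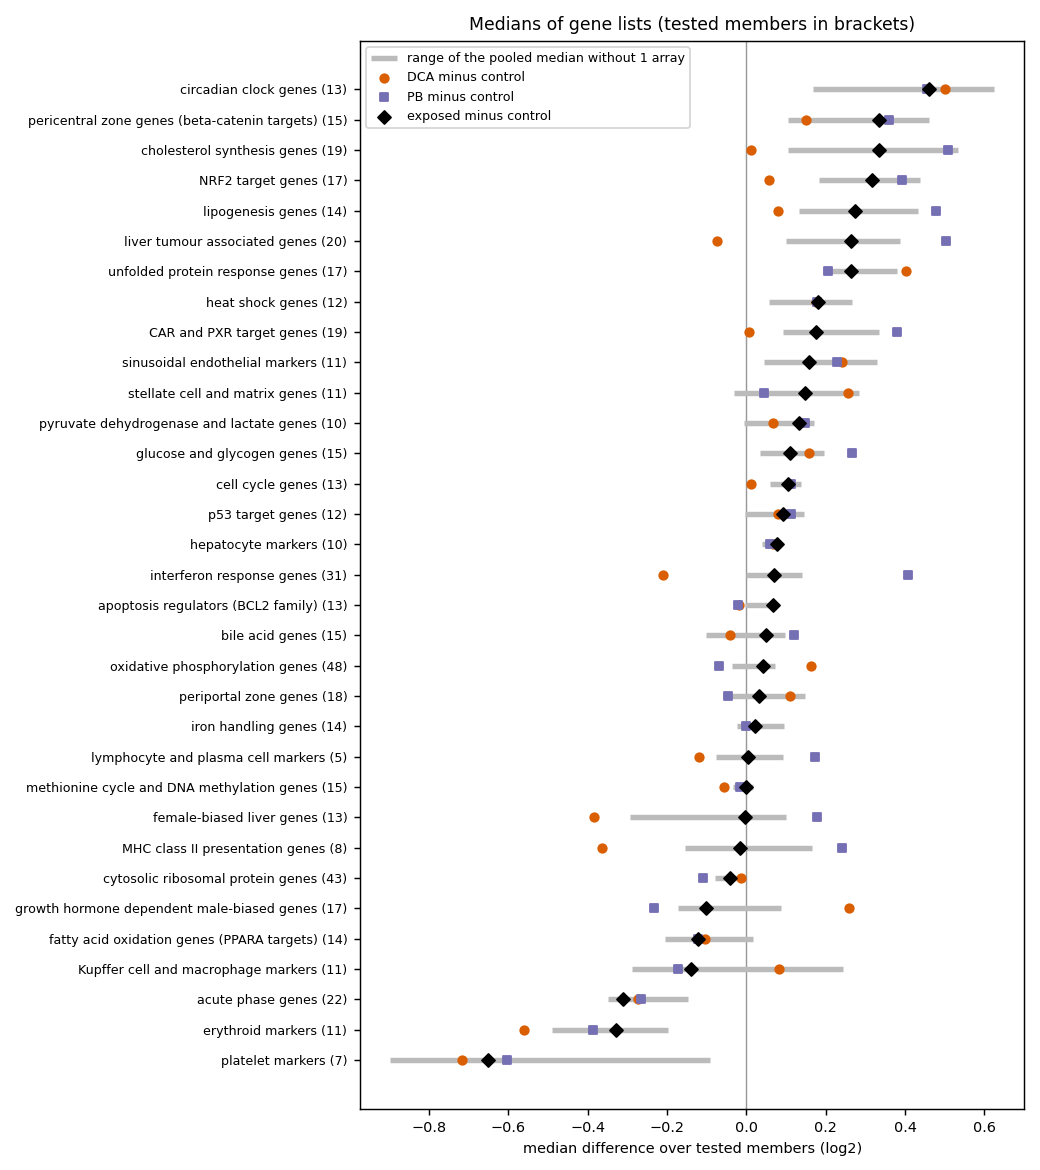
Median log2 difference from control (x axis) over the tested members of 33 gene lists (y axis, number of tested members in brackets) for DCA (orange circles), PB (purple squares) and their pool (black diamonds); grey bars span the pooled median when 1 array is left out. Clock genes stand highest at 0.46 and platelet genes lowest at -0.65, with wide grey bars, and the interferon, tumour, sex-biased and MHC lists have DCA and PB on opposite sides of 0.

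Genes of detoxification lay mostly higher in exposed livers. In the NRF2 list, genes that answer to oxidative and electrophilic stress, 15 of 17 lay higher with a median of 0.32 (0.06 for DCA, 0.39 for PB), and 3 had an unadjusted p under 0.05 on the higher side (background 2.15%). Gsta1 had 7.38, 7.60, 8.32 and 7.26 in DCA livers and 9.12, 10.14, 7.39, 8.58 and 11.24 in PB livers, against 6.26, 6.15, 7.29 and 6.64 in control livers. All but DCA replicate 4 lay above the control range (1.88 ± 0.52, 3.69-fold, adjusted p = 0.724). Its paralog Gsta2, which may share signal with it, differed by 1.53 ± 0.48, and Pgd of the pentose phosphate pathway by 0.64 ± 0.27, while G6pdx lay lower at -0.27. Without control replicate 4 the median of the list was 0.18.

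The genes that phenobarbital switches on while it is given did not stand out as a list. Of 19 CAR and PXR targets tested, 13 lay higher and 6 lower (median 0.17, with 0.01 for DCA and 0.38 for PB). At an unadjusted p under 0.05, 1 lay higher (background 2.15%) and 1 lower (background 2.67%), and 0 passed. The higher one was Cyp2b13, whose levels are given below, with a pooled difference of 1.45 and DCA minus PB of -3.65. Cyp2b10, the most strongly induced of them during treatment, had 4.48, 4.48, 4.61 and 4.49 in DCA livers and 5.04, 4.95, 4.57, 4.91 and 4.60 in PB livers, against 4.88, 4.38, 4.36 and 4.41 in control livers. These levels were near background in all groups (0.15 ± 0.13). Abcc3, an exporter of bile salts and glucuronides, stood on the lower side at -0.62 ± 0.24, with 10.34 on control replicate 1 as the highest array, and Cyp2a5 differed by 0.65 ± 0.31. Control replicate 1 had the highest list mean of the control livers at 9.38, against 8.38 to 8.52 in the other control livers, and without it the median was 0.33 with 16 of 19 higher.

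Genes of protein folding were the 1 list of 33 whose median stayed within 1.5 times its value whichever array was left out. Unfolded protein response genes encode the chaperones and disulfide isomerases of the endoplasmic reticulum. Of 17 tested, 14 lay higher in exposed livers with a median of 0.26 (0.40 for DCA, 0.21 for PB). The median was 0.19 to 0.38 without any 1 array and 0.25 without control replicates 2 and 4. At an unadjusted p under 0.05, 1 gene lay higher (background 2.15%) and 1 lower (background 2.67%), and 0 passed. Herpud1, which serves the degradation of misfolded proteins, had 12.51, 12.75, 12.21 and 12.39 in DCA livers and 11.57, 11.85, 11.68, 12.03 and 11.50 in PB livers, against 11.65, 11.21, 12.23 and 11.23 in control livers. DCA livers held the high levels and PB livers lay within the control range (0.52 ± 0.18, with 0.89 for DCA and 0.15 for PB, adjusted p = 0.967). Creld2 differed by 0.59 ± 0.32, Dnajc3 by 0.26 ± 0.14, and Sel1l lay lower at -0.25 ± 0.11. In the heat shock list 10 of 12 genes lay higher (median 0.18, and 0.06 without control replicate 4), with Hspb1 at 0.80 ± 0.25, of which 0.34 was seen in DCA and 1.27 in PB livers.

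Acute phase genes, plasma proteins that the liver makes during inflammation, lay lower in 18 of 22 with a median of -0.31 (-0.27 for DCA and -0.27 for PB). Itih4, an inhibitor family protein of plasma, averaged 12.54 ± 0.12 in DCA livers (SD, n = 4) and 12.44 ± 0.28 in PB livers (SD, n = 5), against 12.86 ± 0.16 in control livers (SD, n = 4). It overlapped on 2 exposed arrays (-0.37 ± 0.13, adjusted p = 0.987) and was the 1 gene of the 22 with an unadjusted p under 0.05 (background 2.67% on the lower side). Apcs, serum amyloid P, differed by -0.39 ± 0.23 and Socs3, an inhibitor of cytokine signalling, by -0.44 ± 0.25. Without control replicate 2, whose list mean of 11.48 was the highest, the median was -0.15 with 13 of 22 lower. Markers of neutrophils and macrophages were also highest on that array, at 8.25 and 8.11, and their part in the acute phase values was not tested.

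Genes of the pericentral zone, targets of beta-catenin around the central vein, lay higher in 14 of 15 with a median of 0.33 (0.15 for DCA, 0.36 for PB). PB replicate 1 had the highest list mean at 9.37, against 7.98 to 8.13 in the other PB livers, and without it the median was 0.10 with 12 of 15 higher. The same array had the lowest means of all 13 for sinusoidal endothelial genes (5.35, against 6.41 to 6.91 in the other PB livers), stellate cell and matrix genes (5.49, against 6.64 to 7.14), macrophage genes (6.05, against 6.52 to 7.08) and periportal genes (8.68, against 9.49 to 9.87). The part of these markers in the pericentral and tumour gene values was not tested. Glul, glutamine synthetase of the innermost hepatocytes, had 5.43, 6.47, 5.89 and 5.85 in DCA livers and 8.62, 6.44, 6.31, 6.41 and 6.67 in PB livers, against 5.92, 6.02, 6.51 and 5.28 in control livers (0.47 ± 0.38). Apart from PB replicate 1 the groups overlapped. Tbx3, another beta-catenin target, differed by 0.52 ± 0.22 and Cyp1a2 by 0.49 ± 0.23. The periportal list was split evenly, with 9 of 18 higher and a median of 0.03.

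Genes known from mouse liver tumours lay higher in 16 of 20 with a median of 0.26, which joined -0.07 in DCA livers (5 of 20 higher) and 0.50 in PB livers (19 of 20 higher). Igf2, a fetal growth factor, had 4.82, 5.51, 5.01 and 4.84 in DCA livers and 9.52, 5.90, 4.74, 5.43 and 6.65 in PB livers, against 4.64, 4.74, 4.83 and 6.55 in control livers. PB replicate 1 was far above every other array (0.56 ± 0.67, and 0.18 without it). Cbr3 differed by 1.06 ± 0.55, of which DCA gave 0.04 and PB 2.08, and Tff3 by 1.16 ± 0.68. Without PB replicate 1 the list's median was 0.13, and without control replicate 1 it was 0.10. It was 0.39 without control replicate 2, and 0.62 with 19 of 20 higher without control replicates 2 and 4.

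In several lists the pooled median stood near 0 while the medians of the treatments lay on opposite sides of 0. Interferon response genes had a pooled median of 0.07, with -0.21 for DCA (5 of 31 higher) and 0.41 for PB (27 of 31 higher). Ubd, a ubiquitin-like protein induced by interferon, had 5.07, 5.07, 4.74 and 4.58 in DCA livers and 10.18, 8.05, 6.13, 6.81 and 9.16 in PB livers, against 4.88, 5.02, 5.28 and 5.22 in control livers. Its pooled difference of 1.37 ± 0.55 came from PB livers alone (DCA -0.24, PB 2.97, DCA minus PB -3.20 ± 0.61, adjusted p = 0.0741). MHC class II genes had medians of -0.36 for DCA and 0.24 for PB, male-biased genes 0.26 and -0.23, female-biased genes -0.38 and 0.18, and oxidative phosphorylation genes 0.16 and -0.07. The pooled medians of these lists were -0.02 (MHC class II), -0.10 (male-biased), -0.0038 (female-biased) and 0.04 (oxidative phosphorylation). Without control replicate 2 the MHC class II median was 0.165 with 8 of 8 higher, and the male-biased median 0.09 with 10 of 17. The female-biased median was then -0.29 with 4 of 13 higher, the interferon median 0.10 and the oxidative phosphorylation median 0.04. Differences between the treatments were not tested for lists.

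Of the 9 genes that passed in DCA minus PB, Idi1, Endod1, LOC100040592 and Srd5a1 had an unadjusted p above 0.05 in the pool. Prss8, Cyp2b13, Cyp2d12, Pigt and Zfp771 had one below it, where the share over all genes tested was 4.82%. The 9 were picked by a contrast of the same fit, so this split describes the picked genes only. Srd5a1, a steroid reductase, had 7.81, 7.52, 6.95 and 7.85 in DCA livers and 5.50, 5.81, 5.64, 6.58 and 6.08 in PB livers, against 7.23, 6.21, 6.70 and 6.10 in control livers. The control mean lay between those of the treatments, while single control arrays overlapped with both (DCA 0.97, PB -0.64, pooled 0.17 ± 0.25, DCA minus PB 1.61 ± 0.27, adjusted p = 0.0468). Idi1, an isomerase of cholesterol synthesis, had 4.74, 4.75, 4.81 and 4.58 in DCA livers and 6.70, 6.11, 6.07, 6.03 and 6.13 in PB livers, against 5.37, 5.66, 5.05 and 4.44 in control livers. The DCA and PB arrays did not overlap (DCA minus PB -1.49 ± 0.21, adjusted p = 0.0207), and the pooled difference was 0.33 ± 0.19. The DCA levels of Idi1 stood near the lowest levels called detected, 4.44 to 4.50. Over 23 alternative settings its DCA minus PB difference was -1.53 to -0.26 and passed in 14. Cyp2b13, a P450 typical of female mouse liver, had 4.93, 4.70, 4.44 and 4.49 in DCA livers and 7.88, 7.43, 10.06, 8.42 and 7.64 in PB livers, against 6.35, 4.46, 4.33 and 4.91 in control livers, so its pooled difference of 1.45 ± 0.44 was that of PB livers (DCA -0.37, PB 3.27, DCA minus PB -3.65 ± 0.49, adjusted p = 0.0166). Over 23 alternative settings DCA minus PB of Cyp2b13 was -3.86 to -1.76 and passed in 15.

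Genes chosen for their tie to the chemicals or to damage are given singly. Gstz1, the enzyme that breaks down dichloroacetic acid and that the acid inactivates, stood at 12.51 ± 0.12 in DCA livers (SD, n = 4) and 12.50 ± 0.15 in PB livers (SD, n = 5), against 12.54 ± 0.12 in control livers (SD, n = 4), a pooled difference of -0.03 with a 95% interval of -0.26 to 0.19. Pdk4, a pyruvate dehydrogenase kinase, was near background on all arrays but PB replicate 1, which had 6.498 (0.13 ± 0.28). In the list of pyruvate dehydrogenase and lactate genes 7 of 10 lay higher (median 0.13, and -0.01 without PB replicate 1). Gdf15, a cytokine induced by stress, had 6.10, 6.46, 6.99 and 6.31 in DCA livers and 6.33, 6.98, 7.53, 7.19 and 6.85 in PB livers, against 6.02, 6.28, 6.06 and 5.72 in control livers. DCA replicate 1 alone lay within the control range (0.70 ± 0.21, adjusted p = 0.750), and the difference was 0.60 to 0.79 without any 1 array. Cdkn1a, the cell cycle inhibitor induced by p53, had 4.83, 5.03, 5.20 and 4.89 in DCA livers and 6.00, 5.81, 5.78, 5.56 and 5.25 in PB livers, against 4.96, 7.23, 4.93 and 6.89 in control livers, where replicates 2 and 4 were high (-0.67 ± 0.37). Gadd45a, another p53 target, differed by 0.81 ± 0.27.

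The remaining lists had medians from -0.04 to 0.16, where the median of all genes was -0.0032. Cell cycle genes had 10 of 13 tested members higher and a median of 0.10, and 13 of their 32 genes on the array were detected on no array. Medians were 0.09 for p53 targets, 0.07 for BCL2 family genes, 0.05 for bile acid genes and 0.11 for glucose and glycogen genes. They were 0.02 for iron handling genes, -0.04 for ribosomal protein genes and -0.0007 for methionine cycle and DNA methylation genes. Among these, Cyp8b1, the sterol hydroxylase that sets the ratio of bile acids, had 11.59, 11.32, 10.77 and 11.36 in DCA livers and 10.77, 12.27, 10.76, 12.04 and 11.95 in PB livers, against 12.48, 12.17, 11.87 and 12.42 in control livers. It was lower than every control array on 6 of 9 exposed arrays (-0.83 ± 0.28, adjusted p = 0.967). Slc2a2, the glucose transporter of hepatocytes, differed by 0.80 ± 0.30. Sinusoidal endothelial genes had a median of 0.16 with 9 of 11 higher (background 49.2%), and it was 0.33 with 10 of 11 higher without PB replicate 1 and 0.04 without control replicate 4. Stellate cell and matrix genes had a median of 0.15 with 8 of 11 higher, and it was -0.03 without control replicate 1. Hepatocyte genes had a median of 0.08 with 7 of 10 higher. Lymphocyte and plasma cell genes had a median of 0.0048 with 5 of their 14 genes on the array never detected, among them Cd4, Cd8a and Ptprc.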

How the data were processed

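Liver RNA of 13 mice was hybridised to Illumina bead arrays, and groups were taken from the labels. The authors deposited 1 intensity per gene and array on a linear scale with its detection p-value, exported from GenomeStudio per the submitters' processing notes; the version is not given in the sources used here. A second deposited table holds intensity values that the authors normalized by steps not stated in those sources; it served as an alternative. Probes of a gene had been combined before deposit.

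Background was corrected with the normexp model of limma 3.58.1 (R 4.3.3), estimated from the detection p-values of the 13668 rows whose p-value was a multiple of 1/798 within 0.001, since 4470 rows carry a p-value combined over probes. An offset of 16, quantile normalization and log2 followed. Genes whose detection p-value fell under 0.05 on 4 or more arrays were tested with lmFit and eBayes on 3 group means, with contrasts for the pool (weight 0.5 for each treatment), each treatment and DCA minus PB. Tests were two-sided with Benjamini-Hochberg adjustment, and a gene passed at an adjusted p under 0.05. The fit was tested on simulated data. The number of arrays limits the precision.

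Of the gene names, 14307 were current symbols of assembly GRCm38.p6, 2976 older synonyms and 855 had no match; 22 names altered by spreadsheet software were restored. A list gene was matched through an older name only where that name belonged to no other gene. The text names the 12 genes per direction with the smallest unadjusted p (none passed the threshold), up to 4 members of each list with the smallest p, and the tested ones of 22 single genes. Some of these genes, 2 of the 24 leading ones among them, are not reported here. Other genes are said to be chosen after their values were seen or are named only to complete a list. Of 36 gene lists, the 33 with at least 5 tested members are described by medians, most of them with counts. The members, lists and alternatives were chosen with earlier results of these data known. Replicate numbers follow the order of deposit and pair nothing.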

Additional observations from a re-analysis of the deposited data

Results flagged for a closer look

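In 16 of 333 groups of 4 or 5 arrays (4.80%), made up of the genes named above and the list means, 1 array lay far from the others of its group by Dixon's test. Chance flags about 1 in 20 groups. Of the 16, 9 were in PB, 2 in DCA and 5 in control livers. PB replicate 1 was high for Glul (8.62), Prss8 (9.28), Idi1 (6.70), Pdk4 (6.498) and the means of cholesterol synthesis (8.65), pericentral (9.37) and pyruvate dehydrogenase and lactate genes (7.82). PB replicate 3 was low for Bad (6.70), and PB replicate 5 for Dbp (11.1). DCA replicate 4 was high for Itih4 (12.7) and DCA replicate 3 for Cyp2b10 (4.61). In control livers, replicate 2 was high for Pigt (8.59) and the Kupffer cell and macrophage mean (8.11), replicate 4 for Igf2 (6.55), and replicate 1 for Cyp2b10 (4.88) and the mean of CAR and PXR targets (9.38).

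The effects of the treatments against control differed for the 9 genes that passed in DCA minus PB (limma, adjusted p under 0.05), calls that held in 6 (Zfp771) to 19 (LOC100040592) of 24 alternative settings. PB lay above DCA for Cyp2b13 (-3.65), Prss8 (-2.24), LOC100040592 (-2.08), Cyp2d12 (-1.89), Idi1 (-1.49) and Endod1 (-1.21). DCA lay above PB for Srd5a1 (1.61), Zfp771 (0.99) and Pigt (0.87).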

How the results depend on the processing

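In exposed against control livers 0 genes passed under every alternative except 2, each with 1 gene (Cyp2d12), namely genes detected on all 13 arrays (1) and without control replicate 3; leaving out 1 array gave 0 to 1. DCA minus PB had 9 genes in the reported fit, against 1 with the background fitted on all rows, 2 without background correction, 2 with the authors' normalized values, 4 with cyclic loess, 0 with median scaling, 0 without a filter on low signal (1865 at an unadjusted p under 0.05, of 18138 genes), 306 with array weights and 4 with an offset of 50, which was chosen after seeing the data; leaving out 1 array gave 0 to 13. The 24 leading genes kept their direction under every alternative in which they were present. They were chosen for the smallest p on the same arrays that the alternatives reuse, so a kept direction is no evidence of an effect. Over 913 alternative values of 37 genes, 5 changed sign: Gstz1 (0.0061 without control replicate 2, with -0.087 to 0.0061 over the arrays left out), Alb (-0.024), Dbp (-0.039) and Cdkn1a (0.39), each without control replicates 2 and 4, and Pdk4 (-0.049 without PB replicate 1, with -0.049 to 0.19 over the arrays left out). The causes were not tested. The median of 32 of 33 lists moved by over 1.5 times or changed sign without 1 array. Median scaling moved the median over all genes to -0.09, with 30.3% of genes higher. No paired analysis was possible because replicate numbers follow the order of deposit. Levels near 4.5, the lowest detected, have no reliable order.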
